A study of Danio rerio with 8 samples.

Results

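Glucose output genes are described here as 5 zebrafish genes whose enzymes carry carbon towards free glucose: g6pc1a.1 and g6pc1a.2, pgm1, pck1 and fbp1b. They were taken by name from a list, matched through RefSeq accessions, and all 5 of the 5 names were found among the 15600 transcript rows of the series, 1 row each (NM_001003512, NM_001163806, NM_201025, NM_214751 and NM_213132 in that order).

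The livers were profiled by 3' RNA-SAGE on the SOLiD sequencer, which counts transcripts by short tags from their 3' ends. Libraries labelled M+D+, the liver tumours, came from fish carrying Tg(fabp10:TA; TRE:Myc; krt4:GFP) and given doxycycline. In these fish the liver promoter fabp10 drives a transactivator, which with the drug switches on Myc, and krt4:GFP is a reporter carried by the same fish. The controls were M+D-, the same transgenic genotype without the drug, then M-D+, wild-type siblings given doxycycline, and M-D-, wild-type siblings without it. Each of the 4 groups holds 2 libraries. Doxycycline treatment began at 21 days after fertilization, in tanks of 6 L with about 25 fish. The age at sampling, the line that carries the insertions and any pooling of livers are not stated in the labels used here, so the p-values cover only how far libraries of a group lay apart, and that spread may be technical.

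In a fasting vertebrate the liver supplies glucose to the blood from glycogen and by building it from lactate, glycerol and amino acids. Phosphoenolpyruvate carboxykinase (pck1) and fructose-1,6-bisphosphatase (fbp1b) act on the building route, phosphoglucomutase (pgm1) joins glycogen to glucose-6-phosphate in both directions, and glucose-6-phosphatase (g6pc1a.1 and g6pc1a.2) makes the last step of both routes, in the endoplasmic reticulum. In mammals, transcription of the carboxykinase and glucose-6-phosphatase genes is raised by glucagon and glucocorticoids and lowered by insulin, and the liver, kidney and intestine are the organs known for glucose output, while phosphoglucomutase is found in most tissues.

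The recovered library totals were between 1682372 tags, in M-D+ library 1, and 6399932 tags, in M+D+ library 1. Where no tag was counted, the level could still be up to 0.469 to 1.78 CPM (counts scaled to a common library total), which is 3 tags of a library and covers counting error only. In every library 7.93% to 21.0% of tags belonged to fabp10a, a hepatocyte gene. The 73 rows of cytosolic ribosomal proteins took 45.5% and 46.5% of the tags in M+D+ libraries 1 and 2, against 20.3% to 37.5% in the 6 control libraries. Because CPM values are shares of a library, the trimmed mean of M-values (TMM) scaling was computed as well. Its factors were 0.699 and 0.808 in the tumours, 0.976 and 0.924 in M+D- livers, 1.58 and 1.46 in M-D+ livers and 0.866 and 0.978 in M-D- livers. The M-D+ libraries thus stood apart from the other control libraries, and values set against them are given with and without that scaling. All levels below are deposited CPM unless the scaling is named.

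On the deposited scale the last step of glucose release, glucose-6-phosphatase, was lower in the tumours, and phosphoglucomutase was lower by a smaller amount, in a comparison where 20.7% of all rows were called lower. Over the 3 control groups together, g6pc1a.2 fell 4.12-fold, g6pc1a.1 2.58-fold and pgm1 2.01-fold on the log2(CPM + 1) scale. After TMM scaling and by edgeR the call of g6pc1a.2 was kept, and those of g6pc1a.1 and pgm1 were lost. Against M-D+, the wild-type siblings on the same drug, g6pc1a.2 was called lower on the deposited scale only. There its log2 change after TMM scaling was -0.46 (limma adjusted p = 0.442), and edgeR did not call it (edgeR adjusted p = 0.383). The genes of the earlier steps, fbp1b and pck1, had values above the control average and did not pass the main test against it on the deposited scale. After TMM scaling fbp1b passed as higher, and by edgeR and DESeq2 both genes did, though the deposited-scale change of each differed with the tumour library that was kept. Against M+D-, the same genotype without the drug, neither gene was called, and the log2 change of fbp1b was -0.10 (limma adjusted p = 0.899). Both passed as higher when the tumours were set against wild-type siblings on the same drug, though neither did when those 2 groups were fitted alone, and the call of pck1 was lost in 6 of the 8 fits without 1 library.

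**Figure D1:**
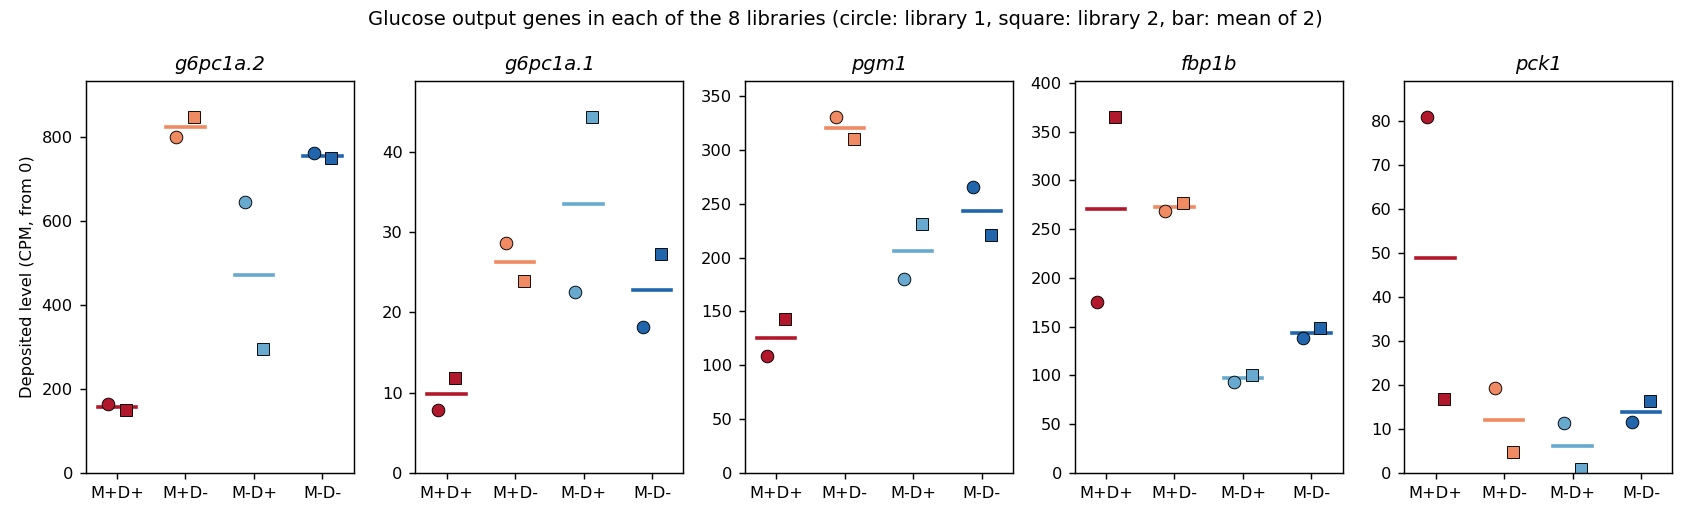
Deposited CPM (y axis, from 0, a scale of its own for each gene) of the 5 glucose output genes in the 4 groups (x axis). Each point is 1 library and each bar the mean of 2. The M+D+ points of g6pc1a.2, at 163 and 150 CPM, lie below all control points, while those of fbp1b, at 176 and 365 CPM, lie on both sides of M+D-.

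The more abundant of the glucose-6-phosphatase rows was g6pc1a.2, the catalytic subunit. It stood at 163 and 150 CPM in M+D+ libraries 1 and 2, against 801 and 849 CPM in M+D- livers, 647 and 295 CPM in M-D+ livers and 762 and 750 CPM in M-D- livers. Both tumour libraries were below every control library, and the M+D- and M-D- values lay close together while the M-D+ libraries were far apart. The lowest control library, M-D+ library 2, was 1.81 times the highest tumour library. The group means were 157 ± 9.2 CPM in the tumours, 825 ± 33.7 CPM in M+D- livers, 471 ± 249 CPM in M-D+ livers and 756 ± 8.7 CPM in M-D- livers (SD, n = 2 each). No 2 groups overlapped, but the mean of M-D+ lay from its neighbours on either side by little more than its own SD. By limma's moderated test across all 4577 tested rows, the log2 change of the tumours against the control mean was -2.04 ± 0.31 (SE, limma adjusted p = 0.00847). That change lay at percentile 3.19 of all tested rows. It stayed past the threshold after TMM scaling, at -1.50 ± 0.30 (limma adjusted p = 0.0248), and by edgeR's quasi-likelihood test on recovered tags (edgeR adjusted p = 0.0352). On the scaled values, however, the tumours (233 and 186) overlapped M-D+ library 2 (202), and the other control libraries were at 408 to 919. Without M+D+ library 1 the size was as large, at -2.10, and the limma adjusted p was 0.0574.

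The gene g6pc1a.1 encodes a second copy of the same enzyme. It was at 7.81 and 11.9 CPM in M+D+, against 28.7 and 23.9 CPM in M+D- livers, 22.6 and 44.4 CPM in M-D+ livers and 18.2 and 27.3 CPM in M-D- livers. Again both tumour libraries were lowest, and the control groups overlapped one another. On the TMM-scaled values the tumours (11.2 and 14.7) overlapped M-D+ library 1 (14.3). These levels rest on 50 and 34 tags in the tumours and on 38 to 196 tags in the control libraries. The log2 change against the control mean was -1.37 ± 0.33 (limma adjusted p = 0.0253), and after TMM scaling -0.86 ± 0.32 (limma adjusted p = 0.122). The call was also lost by edgeR (edgeR adjusted p = 0.126) and when M-D+ was left out of the control mean, at -1.24 (limma adjusted p = 0.0661). In fits without 1 library, it was lost in 5 of the 8, with the change between -1.64 and -1.09.

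Both rows are paralogs that the RefSeq gene table of assembly GRCz12tu places on the same chromosome, with 3 other gene starts between them. Which copy received tags that fit both transcripts is not stated, so the split between the copies is uncertain. The ratio of g6pc1a.2 to g6pc1a.1 was 20.9 and 12.6 in M+D+, against 27.9 and 35.6 in M+D- livers, 28.6 and 6.65 in M-D+ livers and 41.9 and 27.4 in M-D- livers. The tumour ratios lay within the range of the M-D+ libraries and below those of the other control libraries. The summed level of both copies was 171 and 162 CPM in M+D+, against 340 to 873 CPM in the 6 control libraries.

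The phosphoglucomutase gene pgm1, which interconverts glucose-1-phosphate and glucose-6-phosphate, was at 108 and 142 CPM in M+D+, against 331 and 310 CPM in M+D- livers, 180 and 231 CPM in M-D+ livers and 265 and 221 CPM in M-D- livers. The tumour libraries were below all control libraries, by 1.26 times at the nearest pair. On the TMM-scaled values the tumours (155 and 176) were not below the M-D+ livers (114 and 158). By mean the tumours were lowest, then the drug-treated and the untreated wild-type livers, whose values overlapped, and M+D- livers were highest. The log2 change against the control mean was -1.01 ± 0.24 (limma adjusted p = 0.0231). After TMM scaling it was -0.46 ± 0.25 (limma adjusted p = 0.255), and edgeR gave -0.47 (edgeR adjusted p = 0.289), so that pgm1 was called on the deposited scale only. Leaving out 1 library ended the call in 4 of the 8 fits (M+D+ library 1, either M+D- library or M-D- library 1), with the change between -1.21 and -0.81 (limma adjusted p up to 0.151).

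Fructose-1,6-bisphosphatase removes a phosphate from fructose-1,6-bisphosphate. Its gene fbp1b was at 176 and 365 CPM in M+D+, against 268 and 277 CPM in M+D- livers, 93.3 and 100.8 CPM in M-D+ livers and 139 and 149 CPM in M-D- livers. The tumour libraries were above all 4 wild-type libraries and on either side of the untreated transgenic ones. In the order of means M+D+ (270 ± 134 CPM) and M+D- (272.5 ± 6.0 CPM) could not be separated, and M-D- (144 ± 7.0 CPM) and M-D+ (97.1 ± 5.3 CPM) followed without overlap (SD, n = 2 each). Against the control mean the log2 change was 0.70 ± 0.30 (limma adjusted p = 0.119). It passed after TMM scaling, at 1.24 ± 0.27 (limma adjusted p = 0.0302), and by edgeR (edgeR adjusted p = 0.027). Without M+D+ library 2 the deposited-scale change was 0.17, and without M+D+ library 1 it was 1.22, so its size differed with the tumour library that was kept.

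Phosphoenolpyruvate carboxykinase opens the route from oxaloacetate. Its cytosolic gene pck1 was at 80.9 and 16.8 CPM in M+D+, against 19.3 and 4.86 CPM in M+D- livers, 11.3 and 0.91 CPM in M-D+ livers and 11.6 and 16.3 CPM in M-D- livers. M+D+ library 1 stood far above the other 7 libraries, while library 2 lay within the range of the controls. On the TMM-scaled values the tumours (116 and 20.8) were above all control libraries, library 2 only just above the highest of them (19.8). The values of 518 and 48 tags in M+D+ have exact 95% binomial intervals of 74.1 to 88.2 CPM and of 12.4 to 22.2 CPM, so the tumour libraries differed from each other by more than counting error. In M-D+ library 2 only 4 tags were counted (interval 0.247 to 2.32 CPM). The log2 change against the control mean was 2.05 ± 0.83 (limma adjusted p = 0.104), and after TMM scaling 2.53 ± 0.80 (limma adjusted p = 0.080). EdgeR on recovered tags called it higher, at 3.01 (edgeR adjusted p = 0.0451). Without M+D+ library 1 the deposited-scale change was 0.95 (limma adjusted p = 0.569).

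Of the 5 genes, all of which passed the filter on low values (at least 5 CPM in at least 2 libraries), 3 were called lower and none higher against the control mean. Over all 4577 tested rows 20.7% were called lower and 2.32% higher. The median log2 change was -1.01 for the 5 genes and -0.57 for all rows. On the deposited scale both tumour libraries lay below all 6 control libraries for 3 of the 5 genes, and for 26.9% of all tested rows. They lay above all 6 for none of the 5 and for 3.87% of rows. On the TMM-scaled values the tumours overlapped M-D+ livers for each of those 3 genes. After TMM scaling, where 5.11% of all rows were lower and 5.9% higher and their median was -0.07, g6pc1a.2 was called lower and fbp1b higher. EdgeR called g6pc1a.2 lower and pck1 and fbp1b higher, beside 3.26% of all rows lower and 6.55% higher. DESeq2 called the same genes in the same directions (DESeq2 adjusted p = 0.00103, 0.00156 and 0.00166), with 534 of the 4577 rows called.

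Setting M+D+ against each control group separates the parts of the design. Against M-D+, which differs in genotype and shares the drug, fbp1b was 2.60-fold higher (log2 change 1.38 ± 0.36, limma adjusted p = 0.0194) and pck1 7.87-fold higher (2.98 ± 1.02, limma adjusted p = 0.0449). The glucose-6-phosphatase rows were lower, g6pc1a.2 by a log2 change of -1.48 ± 0.38 (limma adjusted p = 0.0177) and g6pc1a.1 by -1.62 ± 0.41 (limma adjusted p = 0.0164). In this comparison 41.7% of all rows were called lower and 2.49% higher, and the median of all rows was -1.04. Both falls thus lay at percentiles 30.3 and 25.3 of all rows, and fbp1b and pck1 at percentiles 98.2 and 99.8. After TMM scaling, with a median of all rows of -0.12, fbp1b and pck1 stayed called as higher, at 2.38 and 3.80 (limma adjusted p = 0.00829 and 0.038), beside 8.43% of all rows higher and 7.41% lower. The glucose-6-phosphatase changes were then -0.46 and -0.66 for g6pc1a.2 and g6pc1a.1, neither called (limma adjusted p = 0.442 and 0.289). The change of pgm1 was not called (limma adjusted p = 0.0771) and turned from -0.71 to 0.30 with the scaling.

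The call of pck1 against M-D+ rested on single libraries. It was 1.87 when M+D+ library 1 was left out and 1.63 when M-D+ library 2 was, neither called (limma adjusted p = 0.241 and 0.220). Leaving out any one of the M+D- and M-D- libraries kept the size and raised the limma adjusted p to between 0.0505 and 0.0655, so the call was lost in 6 of the 8 fits. For fbp1b the change was 0.85 without M+D+ library 2 (limma adjusted p = 0.0714) and 1.90 when the other tumour library was left out, and the call was lost in 2 of the 8 fits. That of g6pc1a.2 was lost without either tumour library and was -0.91 without M-D+ library 1, and that of g6pc1a.1 was lost without M+D+ library 1 or M-D+ library 2 (-1.35 and -1.15). In a fit of M+D+ and M-D+ alone none of the 5 genes was called, with the same changes and limma adjusted p of 0.0573 for g6pc1a.1 to 0.184 for pgm1.

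**Figure D2:**
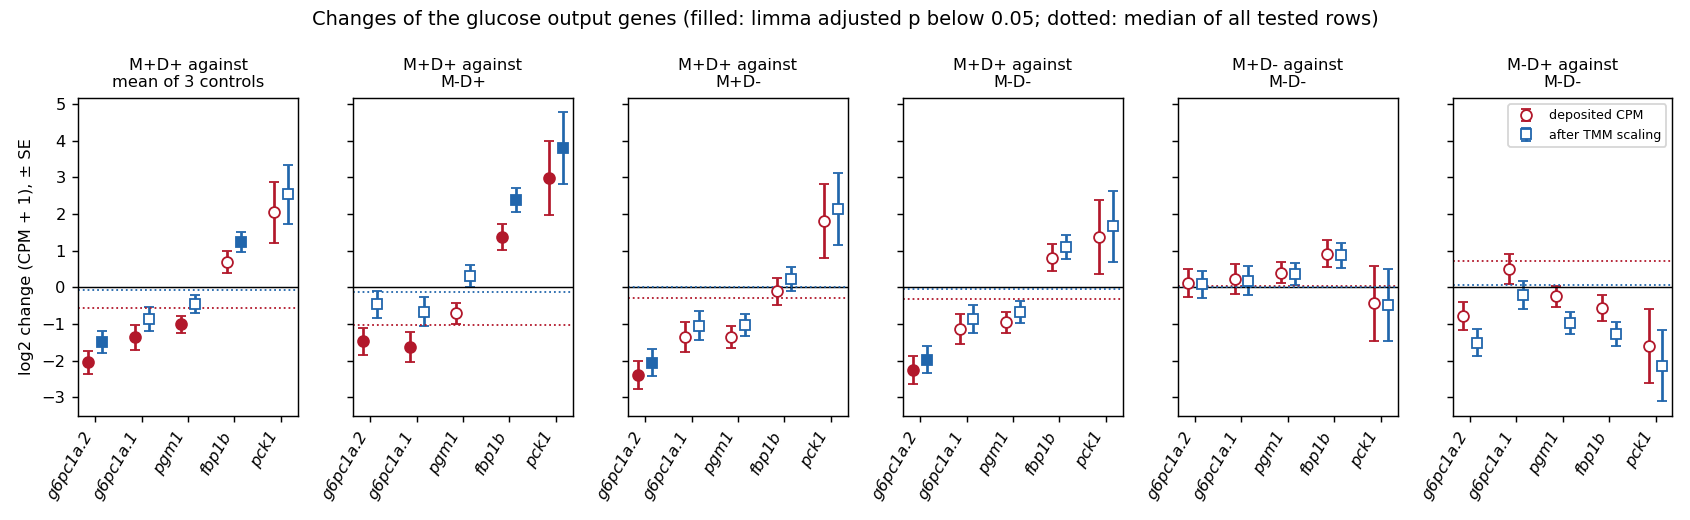
Log2 change of each gene on the CPM + 1 scale (y axis) with its standard error in 6 comparisons (panels), on deposited CPM (red circles) and after TMM scaling (blue squares). Filled symbols passed a limma adjusted p of 0.05, and dotted lines mark the median of all tested rows. In the M+D+ against M-D+ panel the filled rises of fbp1b and pck1 appear on both scales, and the filled falls of g6pc1a.1 and g6pc1a.2 on the deposited scale only.

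Against M+D-, the same genotype without the drug, g6pc1a.2 was 5.24-fold lower (log2 change -2.39 ± 0.38, limma adjusted p = 0.0239), at percentile 1.53 of all rows. It was the only one of the 5 called by limma, while 2.34% of all rows were called lower and 0.393% higher. The changes of pgm1 and g6pc1a.1 were of like size to each other, at -1.36 ± 0.29 and -1.35 ± 0.41 (limma adjusted p = 0.0513 and 0.107). The values of pck1 and fbp1b were 1.81 ± 1.02 and -0.10 ± 0.36 (limma adjusted p = 0.348 and 0.899), and that of fbp1b turned positive after TMM scaling (0.23). The median of all rows was -0.30. After TMM scaling g6pc1a.2 was at -2.05 (limma adjusted p = 0.0383, with 1.18% of all rows lower), and edgeR gave the same size and did not call it (edgeR adjusted p = 0.054). Leaving out 1 library ended the call in 6 of the 8 fits, with the change between -2.45 and -2.33 (limma adjusted p up to 0.216).

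Against M-D-, untreated wild-type livers, g6pc1a.2 was 4.80-fold lower (log2 change -2.26 ± 0.38, limma adjusted p = 0.0228), and again the only one called by limma, beside 3.87% of all rows called lower and 1.35% higher. DESeq2 also called fbp1b higher (DESeq2 adjusted p = 0.0474, with 4.48% of all rows higher). After TMM scaling the change of g6pc1a.2 was -1.97 (limma adjusted p = 0.0276, with 2.4% of all rows lower), and edgeR called g6pc1a.2 too (edgeR adjusted p = 0.0386, with 1.66% lower). The other changes were -1.13 ± 0.41 for g6pc1a.1, -0.96 ± 0.29 for pgm1, 0.81 ± 0.36 for fbp1b and 1.37 ± 1.02 for pck1, with limma adjusted p from 0.0891 to 0.420 and a median of -0.31 over all rows. In 6 of the 8 fits without 1 library g6pc1a.2 was not called, with the change between -2.32 and -2.20 (limma adjusted p up to 0.137). The comparisons with the 3 control groups share the tumour libraries, so they are not independent of one another.

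A ratio of genes within a library does not depend on how the library is scaled. The summed level of g6pc1a.1 and g6pc1a.2 over that of fbp1b was 0.973 and 0.444 in M+D+, against 3.09 and 3.15 in M+D- livers, 7.17 and 3.37 in M-D+ livers and 5.62 and 5.22 in M-D- livers. Both tumour ratios lay below every control ratio. As a share of the summed tags of the 5 genes, g6pc1a.2 made up 30.4% and 21.9% in M+D+ and 43.9% to 67.8% in the control libraries, and fbp1b 32.8% and 53.2% in M+D+ and 9.78% to 18.9% in the control libraries. The share of pgm1, at 20.2% and 20.8% in M+D+, lay within the control range of 18.9% to 34.4%. That of pck1 was 15.1% and 2.44% in M+D+ and 0.135% to 1.40% in the control libraries. These ratios restate the levels above and were not tested.

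**Figure D3:**
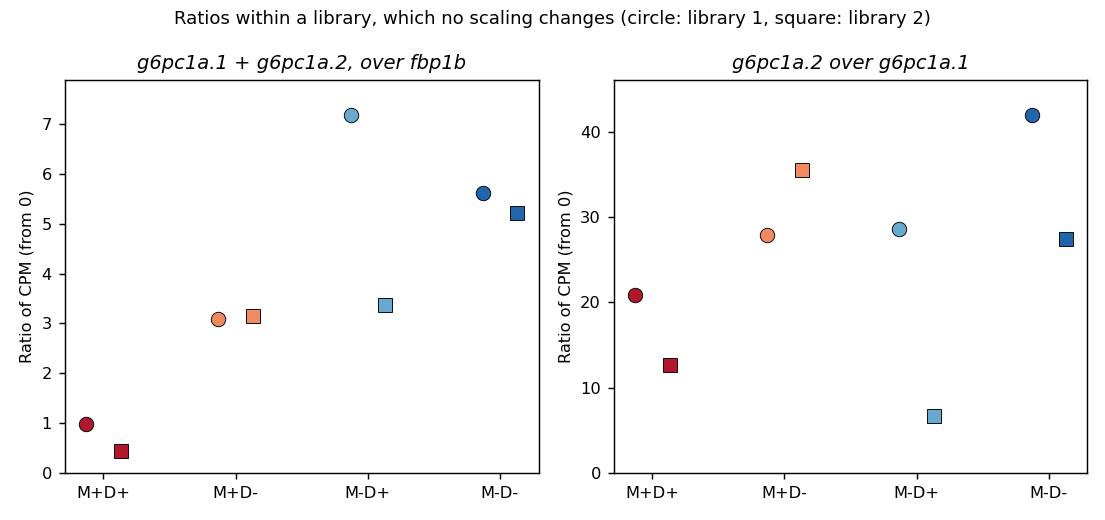
Ratios of CPM within each library (y axes, from 0) by group (x axes), for the 2 glucose-6-phosphatase copies summed over fbp1b (left) and for g6pc1a.2 over g6pc1a.1 (right). Each point is 1 library. On the left the M+D+ points, at 0.973 and 0.444, lie below all control points, the lowest of which is 3.09, and on the right the M+D+ points lie between the M-D+ ones.

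The transgene without the drug and the drug without the transgene were compared with untreated wild-type livers. In M+D- against M-D- the changes ran from -0.43 ± 1.02 for pck1 to 0.92 ± 0.36 for fbp1b, and none was called (limma adjusted p from 0.528 to 0.926). Levels of fbp1b were 268 and 277 CPM in M+D- and 139 and 149 CPM in M-D-, so the groups did not overlap for this gene. Nor did they for g6pc1a.2 (801 and 849 against 762 and 750 CPM) or pgm1 (331 and 310 against 265 and 221 CPM). They overlapped for g6pc1a.1 and pck1. The share of all rows without such overlap was not counted. No row of all 4577 passed limma's threshold here (0%), 419 rows had an unadjusted p below 0.05, edgeR called none and DESeq2 called 38. In M-D+ against M-D- the changes were -1.61 ± 1.02 for pck1, -0.79 ± 0.38 for g6pc1a.2, -0.56 ± 0.36 for fbp1b, -0.24 ± 0.29 for pgm1 and 0.49 ± 0.41 for g6pc1a.1, none called (limma adjusted p from 0.161 to 0.549). Of all rows 0.568% were called lower and 9.22% higher, with a median of 0.72, and the first 4 genes lay at percentiles 0.765 to 10.7. After TMM scaling the median of all rows was 0.06, and the changes were -2.13 for pck1, -1.51 for g6pc1a.2, -1.28 for fbp1b and -0.97 for pgm1, none called by limma, and g6pc1a.1 turned to -0.20. DESeq2 called g6pc1a.2 and fbp1b lower there (DESeq2 adjusted p = 0.015 and 0.0263), beside 8.72% of the 1560 rows to which it gave an adjusted p.

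The interaction of genotype and doxycycline, the drug's change in transgenic fish minus its change in wild-type fish, was not called by limma or edgeR for any of the 5 genes. It ran from -1.84 ± 0.58 for g6pc1a.1 to 3.41 ± 1.44 for pck1 (limma adjusted p from 0.0694 to 0.508), with a median of -1.07 over all rows, of which 7.97% were called lower and 0.262% higher. After TMM scaling the values were 4.28 for pck1, 1.51 for fbp1b and -0.84 to -0.06 for the other 3 genes, none called (limma adjusted p from 0.194 to 0.966). DESeq2 called pck1 higher, at 4.52 (DESeq2 adjusted p = 0.0206), beside 2.88% of the 3955 rows to which it gave an adjusted p.

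The rest of the route was read from lists of related genes, beside the 20.7% of all rows called lower, the 2.32% called higher and the median of -0.57 in the same comparison. Of 29 other genes of glucose synthesis on the list, 13 rows were tested, with a median of -0.15. In the tumours against the control mean 2 were called lower and none higher, so the share called lower was not above that of all rows. Those that fell were mdh1aa, a cytosolic malate dehydrogenase that serves the export of carbon from mitochondria (1186 ± 93.9 CPM in the tumours and 3183 ± 858, 2260 ± 619 and 5473 ± 455 CPM in the M+D-, M-D+ and M-D- livers, log2 change -1.50 ± 0.27, limma adjusted p = 0.012), and got2a, a mitochondrial aspartate aminotransferase (log2 change -0.83 ± 0.24, limma adjusted p = 0.0402). Neither was called after TMM scaling (limma adjusted p = 0.0713 and 0.487), and fits without 1 library lost the calls in 2 and 6 of the 8. The mitochondrial carboxykinase gene pck2 was at 79.8 and 103 CPM in M+D+ and 87.5 to 198 CPM in the control libraries (log2 change -0.59, limma adjusted p = 0.123). The close relative fbp1a had a change of 0.31 (limma adjusted p = 0.692). The carriers on either side of glucose-6-phosphatase were not called either. They are slc37a4a, which brings glucose-6-phosphate into the endoplasmic reticulum (log2 change 0.30 ± 0.62, limma adjusted p = 0.737), and slc2a2, the glucose carrier of the liver cell membrane (179.5 ± 4.4 CPM in the tumours and 269 ± 44.8, 246 ± 24.3 and 178 ± 13.8 CPM in the M+D-, M-D+ and M-D- livers, log2 change -0.33 ± 0.22, limma adjusted p = 0.287, and 0.21 after TMM scaling).

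Among glycogen genes, 10 of the 31 listed were tested, 2 were called lower and none higher, with a median of -0.66, about the shares of all rows. They were phkg2, a catalytic subunit of phosphorylase kinase (log2 change -1.03 ± 0.26, limma adjusted p = 0.0272), and pgm3, a relative of pgm1 that acts in amino sugar synthesis (0.955 ± 0.86 CPM in the tumours and 2.04 ± 1.2, 13.2 ± 4.0 and 5.13 ± 1.4 CPM in the M+D-, M-D+ and M-D- livers, log2 change -1.75 ± 0.42, limma adjusted p = 0.0233). The tumour mean of pgm3 was under the 1.05 CPM that 3 tags make in M+D+ library 2, so its change rests on very few tags. It passed the filter of 5 CPM only through wild-type libraries. The counts of rows called lower here could thus include pgm3 only because it was high in those controls. Both calls were lost after TMM scaling (limma adjusted p = 0.258 and 0.0818), and in 6 and 4 of the 8 fits without 1 library. After TMM scaling 1 of the 10 was called higher and none lower, and by edgeR 2 were higher and none lower. These were the liver glycogen synthase gene gys2 (188.6 and 291 CPM in M+D+ and 93.9 to 179 CPM in the control libraries, log2 change 0.82 ± 0.28 and limma adjusted p = 0.0656 as deposited, 1.37 and 0.0224 after TMM scaling) and, by edgeR alone, ppp1r3ca, a glycogen-targeting subunit of protein phosphatase (edgeR adjusted p = 0.041), both named here after their values were seen. In M+D+ against M-D+ 1 of the 10 was called higher and 4 lower, beside 2.49% and 41.7% of all rows. The one called higher was gys2 (log2 change 1.01 ± 0.34, limma adjusted p = 0.0436, and 2.02 and 0.0113 after TMM scaling), and those called lower were pgm3, phkg2 and, named after their values were seen, ugp2b and pgm2. After TMM scaling 3 were called higher and 1, pgm3, lower, beside 8.43% and 7.41% of all rows.

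Glycolysis shares its reversible enzymes with glucose synthesis, and all rows of its list called here encode such enzymes, so they do not mark a direction. The list had 3 rows called higher and 1 lower of 19 tested, from 41 listed. Over all rows 2.32% were higher and 20.7% lower, and the list median was -0.26. Those that rose were ldhba, a lactate dehydrogenase subunit (11.6 and 18.9 CPM in M+D+ and 1.55 to 2.19 CPM in the control libraries, log2 change 2.49 ± 0.34, limma adjusted p = 0.00774), the phosphoglycerate mutase gene pgam2 (63.9 and 78.9 CPM in M+D+ and 8.92 to 35.7 CPM in the control libraries, log2 change 2.03 ± 0.28, limma adjusted p = 0.00771) and the enolase gene eno1a (7.03 and 10.8 CPM in M+D+ and 0 to 3.17 CPM in the control libraries, log2 change 1.88 ± 0.52, limma adjusted p = 0.0358). All 3 stayed called after TMM scaling and by edgeR, which also called aldoab, an aldolase gene named after its values were seen, higher (2.97 and 36.7 CPM in M+D+ and 0.65 to 14.6 CPM in the control libraries, edgeR adjusted p = 0.0395). In fits without 1 library the change of pgam2 ran from 1.88 to 2.18. The rows of ldhba and eno1a passed the filter only through the 2 tumour libraries, so they were not tested when either was left out. In the other 6 fits their changes ran from 2.44 to 2.55 and from 1.61 to 2.16, and eno1a lost its call in 3. Both are among the 3 rows called higher, a count they could enter only by being high in the tumours. The triosephosphate isomerase gene tpi1b fell (log2 change -0.94 ± 0.27, limma adjusted p = 0.0382), a call lost after TMM scaling and in 5 of the 8 fits without 1 library. The opposing enzymes of the first and last glycolytic steps gave no call. The glucokinase gene gck did not pass the filter, at 0 and 0.35 CPM in M+D+ and 0 to 4.16 CPM in the control libraries, and the pyruvate kinase gene pklr had a change of -0.96 ± 0.56 (limma adjusted p = 0.231).

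Of 16 listed genes of the pentose phosphate route and of other hexoses, 7 rows were tested. The sorbitol dehydrogenase gene sord was the 1 called lower (log2 change -0.73 ± 0.22, limma adjusted p = 0.049), again not above the share of all rows. Of 47 listed regulators 16 were tested, and none was called higher. Called lower were 2 forkhead factors, also not above the 20.7% of all rows. They were foxa3 (7.16 ± 0.25 CPM in the tumours and 14.6 ± 2.1, 24.4 ± 2.5 and 18.8 ± 3.6 CPM in the M+D-, M-D+ and M-D- livers, log2 change -1.28 ± 0.24, limma adjusted p = 0.0128) and foxo3b (-1.21 ± 0.35, limma adjusted p = 0.0426). After TMM scaling none of these 3 calls was kept, and leaving out 1 library ended that of sord in 7, of foxa3 in 2 and of foxo3b in 6 of the 8 fits. The gene igfbp1a, whose mammalian counterpart is lowered by insulin as glucose-6-phosphatase is, had a change of -0.10 ± 0.33 (limma adjusted p = 0.833), which was 0.45 after TMM scaling. Its paralog igfbp1b, named after its values were seen, was at 44.2 and 59.0 CPM in M+D+ and 8.86 to 43.8 CPM in the control libraries (log2 change 1.26 ± 0.43, limma adjusted p = 0.0661) and passed as higher after TMM scaling (1.79, limma adjusted p = 0.0298) and by edgeR (edgeR adjusted p = 0.0275). It was the only regulator called after TMM scaling, and edgeR also called the nuclear receptor gene pparaa, likewise named after its values were seen, higher (edgeR adjusted p = 0.0451). The receptor genes insra and gcgra and the factor foxo1a were at most 5.94, 0.59 and 0.60 CPM in any library and were not tested. The listed genes ppargc1a and g6pc1b were not among the tested rows either.

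**Figure D4:**
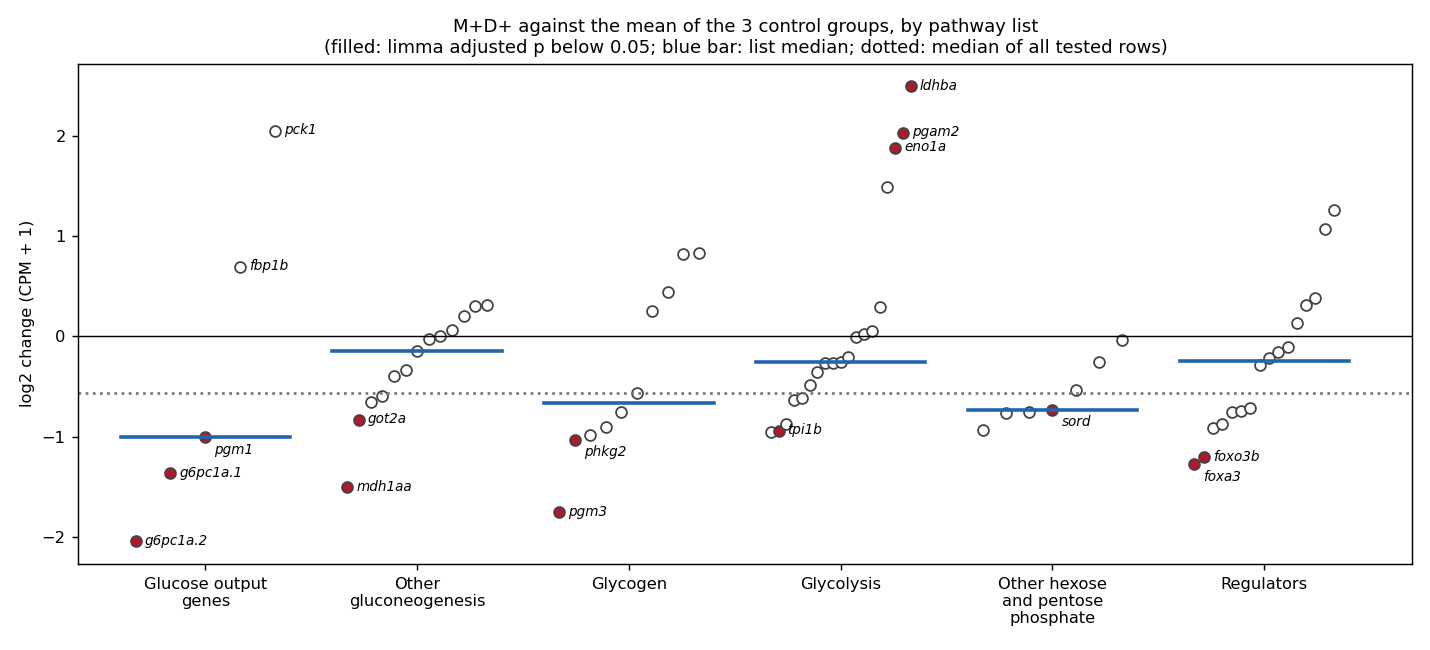
Log2 change of each tested row on the CPM + 1 scale (y axis) in the tumours against the control mean, for the 5 glucose output genes and 5 lists of related genes (x axis, rows of a list in order of size). Filled points passed a limma adjusted p of 0.05, blue bars are list medians and the dotted line is the median of all tested rows, -0.57. The glucose output genes span from -2.04 (g6pc1a.2) to 2.05 (pck1), with fbp1b and pck1 unfilled.

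Levels across the 8 libraries were set beside those of 1545 rows with a symbol and a mean of at least 20 CPM, and the 3 rows most like each gene by Pearson's r of log2(CPM + 1) were listed as a description. The libraries share groups and depth, so these r values are no test. For g6pc1a.2 they were cyp2x9, a cytochrome P450 (r = 0.983), and the immunophilin genes fkbp4 (0.952) and fkbp5 (0.947), and cyp2x9 stood at 64.1 and 80.7 CPM in M+D+ and 198 to 594 CPM in the control libraries. For g6pc1a.1 they were the fibrinogen gene fgg (0.994), hao1 (0.991) and ivd (0.981). For pgm1 they were the plasma protein gene ahsg1 (0.975), vdac3 (0.975) and the globin gene hbba1 (0.974). The nearest rows of fbp1b were rcl1 (0.920), gamt (0.891) and adh8b (0.876), and those of pck1 were prdx6 (0.884), aamp (0.861) and eif5a (0.840). The 3 sets of the genes that fell shared no row. With 3 of 1545 rows taken for each gene, this cannot tell whether the genes varied alike.

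Markers of liver cells and of tissues that could be cut out with the liver were read beside these results. Of 15 hepatocyte markers 11 were held, and their sum, most of it fabp10a, was 203258 and 153057 CPM in M+D+ and 114261 to 258008 CPM in the control libraries. Without fabp10a the other 10 summed to 15344 and 23282 CPM in M+D+ and 34970 to 47723 CPM in the control libraries. Both tumour libraries were below all control libraries for 5 of the 11 (apobb.1, ahsg2, fgb, fgg and ambp), and for 26.9% of all tested rows. These markers were low in the same libraries as the glucose-6-phosphatase genes, and a link between them was not tested. After TMM scaling both tumour libraries were below all control libraries for 1 of the 11. The scaled sum without fabp10a was 21944 and 28831 in M+D+ and 22066 to 49361 in the control libraries.

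Of 20 exocrine pancreas genes 15 were held, with sums of 666 and 1054 CPM in M+D+ and 1241 to 4027 CPM in the control libraries. Of 11 kidney tubule genes 6 were held, with sums of 163 and 201 CPM in M+D+ and 239 to 480 CPM in the control libraries, of which the carrier slc22a2 made up most, and slc12a3, pdzk1 and slc13a3 were at 0 to 0.59 CPM in every library. Of 11 erythrocyte genes 7 were held, with sums of 132.5 and 199 CPM in M+D+ and 210 to 440 CPM in the control libraries. The globin gene hbba1 made up most of the tumour sums, at 104 and 154 CPM. The gene alas2 went the other way, at 24.5 and 26.5 CPM in M+D+ and at most 14.9 CPM in the control libraries. After TMM scaling 1 of the 7 rows was above all control libraries in both tumours, and 0 were below. The pancreas, kidney and erythrocyte sums were thus lowest in the tumours, as the glucose-6-phosphatase genes and pgm1 were. After TMM scaling all 3 sums overlapped the controls. Of 15 intestinal genes 7 were held, with sums of 184 and 244 CPM in M+D+ and 111 to 1119 CPM in the control libraries. In M+D+ library 1, where pck1 was highest, apoa4b.2, most of the sum, was at 157 CPM, against 83.8 to 1063 CPM in the control libraries. There cdh17 was at 26.2 CPM, against 10.2 to 29.0 CPM. The gene fabp2 was counted there at 0.31 CPM, less than the 0.469 CPM that 3 tags make in that library, against 1.20 to 20.2 CPM. The genes slc15a1b, vil1, chia.1 and chia.2 were at 0 to 0.47 CPM there, within the control range. The sums of 8 biliary genes (6 held), 12 leukocyte genes (8 held), 12 skeletal muscle genes (8 held) and 8 endothelial genes (3 held, 0 to 1.19 CPM) lay within the control range in both tumour libraries. The part of these tissues in the results was not tested. In such bulk samples, fewer cells of a type and less RNA per cell cannot be told apart.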

How the data were processed

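Each of the 8 deposited files pairs RefSeq accessions with CPM values that the authors scaled. The sources used here name no aligner, genome build or rule for assigning tags. CPM values were whole multiples of 1 step per library, and 100% came out as whole tags within 0.1. Unlisted rows were taken as 0. Symbols came from the RefSeq table of assembly GRCz12tu by accession (10410 of 15600 rows), with no coordinates used.

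The main test was limma 3.58.1 (R 4.3.3) on log2(CPM + 1) with an intensity trend, in 1 fit of 4 group means, two-sided, with Benjamini-Hochberg adjustment over 4577 rows (at least 5 CPM in at least 2 libraries) and a threshold of 0.05, in 7 comparisons. Alternatives were other pseudocounts and filters, TMM scaling, edgeR 4.0.16 and DESeq2 1.42.0 on recovered tags, a replicate block, smaller fits and leaving out each library. On the recovered tags edgeR called 449 rows for the tumours against the control mean. Tools were tested on simulated data. Both libraries of each group differed beyond sampling noise in a chi-square test over rows (at least 47.3 per degree of freedom).

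All 5 genes are named with every library's value. From each list up to 3 called rows in each direction were named by smallest p, plus 12 genes fixed by name; others are marked in the text. The genes, lists and tests were chosen with earlier results of these data known.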

Additional observations from a re-analysis of the deposited data

Results flagged for a closer look

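For g6pc1a.2 and pgm1, both transgenic libraries were below both wild-type ones with doxycycline, and both were above them without it, on the deposited scale. How many of all rows cross in this way was not counted. Levels of g6pc1a.2 without the drug were 801 and 849 CPM in M+D- livers and 762 and 750 CPM in M-D- livers. The difference of these effects, tested as the interaction, was -1.60 ± 0.54 for g6pc1a.2 (limma adjusted p = 0.0784) and -1.11 ± 0.41 for pgm1 (limma adjusted p = 0.0959), so neither passed, and the median of all rows was -1.07. The 2 interactions lay at percentiles 27.6 and 48.3 of all rows. After TMM scaling the interaction was -0.54 for g6pc1a.2 and -0.06 for pgm1 (limma adjusted p = 0.650 and 0.966). On the scaled values the tumours overlapped M-D+ livers for g6pc1a.2 (233 and 186 against 408 and 202) and for pgm1 (155 and 176 against 114 and 158).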

How the results depend on the processing

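Counts are given as all rows, then the 5 glucose output genes. A row count given alone does not mean that the same genes were called. For the tumours against the control mean, TMM scaling gave 2 genes, 1 higher and 1 lower. EdgeR and DESeq2 each gave 3 genes, 2 higher (pck1 and fbp1b) and 1 lower (g6pc1a.2). The calls of g6pc1a.1 and pgm1 were lost in each of these settings, and that of g6pc1a.1 also when M-D+ was left out of the mean. For the tumours against the control mean (1052 rows and 3 genes), no filter gave 556 and 1, TMM scaling 504 rows, edgeR 449, DESeq2 534 and leaving M-D+ out of the mean 377, and fits without 1 library gave 64 to 1294 rows and 0 to 4 genes. For M+D+ against M-D+ (2023 and 4), a filter of 20 CPM gave 1263 rows, TMM scaling 725 and 2, edgeR 601 and 2, DESeq2 705 and 2, and a fit of those groups alone 968 and 0. Fits without 1 library gave 1047 to 1772 rows and 1 to 3 genes. For M+D+ against M+D- (125 and 1), a pseudocount of 0.5 and a filter of 20 CPM gave 2 genes, no filter 66 rows, edgeR 39 and 0, DESeq2 211 rows, and fits without 1 library 0 to 293 rows and 0 to 2 genes. For M+D+ against M-D- (239 and 1), no filter gave 87 rows, DESeq2 2 genes, the groups alone 65 rows, and fits without 1 library 0 to 439 rows and 0 to 1 genes. For M+D- against M-D- (0 and 0), DESeq2 gave 38 rows, the groups alone 4, and fits without 1 library 0 to 1. For M-D+ against M-D- (448 and 0), pseudocounts of 0.5 and 5 gave 225 and 692 rows, no filter 3, TMM scaling 1, edgeR 0, DESeq2 167 and 2, the groups alone 0, and fits without 1 library 0 to 541. For the interaction (377 and 0), no filter gave 0 rows, TMM scaling 4, edgeR 0, DESeq2 161 and 1, and fits without 1 library 0 to 506 rows and 0 to 1 genes. Where a fit left 1 library in a group, that library was assumed to vary like the other groups.

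Deviations of same-numbered libraries correlated between -0.33 and 0.04 across groups, so no positive pairing by replicate number was seen. With 2 libraries in each group this cannot exclude a pairing, and the labels do not state one. With the replicate block the counts of rows were 48 for M+D+ against M+D-, 85 against M-D-, 0 for M-D+ against M-D- and 6 for the interaction, and no call of the 5 genes changed.

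Signs turned for pgm1 in M+D+ against M-D+, to 0.30 (TMM), 0.28 (edgeR) and 0.35 (DESeq2), and in the interaction by DESeq2 (0.011). The sign of fbp1b turned in M+D+ against M+D-, to 0.23 (TMM), 0.29 (edgeR), 0.34 (DESeq2), and ran from -0.63 to 0.42 when 1 library was left out (highest without M+D+ library 1). In the interaction fbp1b ran from -0.068 (without M+D+ library 2) to 0.98. It turned for g6pc1a.1 in M-D+ against M-D-, to -0.20 (TMM), -0.11 (edgeR) and -0.15 (DESeq2, which gave no adjusted p), and in M+D- against M-D- it ran from -0.060 (without M-D- library 1) to 0.50. For pck1 in M+D- against M-D- it ran from -1.33 to 0.46 (without M+D- library 2). None of these values was called. The cause of each change was not tested. Of 582 alternative values of the 5 genes, 498 kept direction and call, 55 lost a call, 16 gained one and 13 changed sign, the value without an adjusted p not counted. The same alternatives were applied to 22 named list genes against the control mean, a choice made after seeing the data, and of 363 values 252 kept direction and call, 85 lost a call, 16 gained one and 10 changed sign. Those were slc2a2 at 0.21 (TMM), 0.21 (edgeR) and 0.26 (DESeq2), igfbp1a at 0.45 (TMM), 0.40 (edgeR) and 0.45 (DESeq2) and, without 1 library, igfbp1a (-0.30 to 0.097), fbp1a (-0.12 to 0.74), aldoab (-0.13 to 3.11) and slc37a4a (-0.15 to 0.75). Depth limits pck1 most, with 4 to 97 tags in the control libraries.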
